A study of Mus musculus with 6 samples.

Results

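The genes described here encode the ligands, latent binding proteins, receptors, Smads, antagonists and marker targets of the TGF-beta, activin and bone morphogenetic protein (BMP) pathways. They were chosen by symbol from a list of 48, drawn up with earlier results of these data known. Where a gene had several probe sets, the brightest on average over the 6 arrays stood for it. Of these 48 genes, 46 were measured among 18193 genes in all. Mstn (myostatin) and Gdf6 had no probe set named for them in the annotation used and were not analysed here.

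Ventricular RNA of 8-week-old mice was hybridised to 6 arrays. One group, caAkt, comprised 3 arrays of transgenic mice in which a constitutively active form of the growth kinase Akt is expressed in the heart alone. The other comprised 3 arrays of wild-type mice of the same age. The labels give no strain, sex or batch and do not say that each array is a separate heart, so the p-values reflect array-to-array spread alone, possibly a technical one. At its probe set with the largest difference, Akt1 stood at 15.16, 15.10 and 15.08 (log2) on the caAkt arrays. The wild-type arrays read 9.79, 9.79 and 10.18 there, so each array matched its label. Another Akt1 probe set was lower in caAkt hearts (10.42 against 10.71, limma adjusted p = 0.0281 over all probe sets). The remaining ones gave log2 differences of -0.21 and 0.08 (adjusted p = 0.14 and 0.49). Array medians were 6.77 to 6.80, and values spanned 3.17 to 15.45.

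TGF-beta family ligands are secreted as dimers, and those of TGF-beta itself are held in the matrix by latent TGF-beta binding proteins until they are released. A ligand brings type I and type II receptor kinases together, and the type I kinase phosphorylates receptor Smads, which enter the nucleus with Smad4. TGF-beta and activin act mainly through Smad2 and Smad3, and BMPs mainly through Smad1 and Smad5. In the heart, TGF-beta is best known for driving fibroblasts to make matrix, whereas BMP signals are best known from heart development and the vessel wall.

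In caAkt hearts all 3 TGF-beta ligand genes rose, as did 2 of 4 latent binding protein genes (Ltbp2 and Ltbp3). Of 5 TGF-beta receptors and co-receptors, the kinases Tgfbr1 and Tgfbr2 rose and Tgfbr3 fell. The activin receptors Acvr2a and Acvr2b fell slightly, and none of the receptor Smads or Smad4 was called at its brightest probe set. None of the 6 BMP ligand genes rose, but with 16.1% of all genes called higher, a count of 0 among 6 does not set them apart. A gene was called at a limma p-value under 0.05 after Benjamini-Hochberg adjustment over all 18193 genes, with differences taken as caAkt minus wild-type on the log2 scale. By this rule 21 of the 46 measured genes (45.7%) were called, against 28.5% of all genes. Of them 16 were higher (34.8%; 16.1% of all genes) and 5 lower (10.9%; 12.4% of all genes). The share of lower genes was thus near that of all genes. Their median log2 fold change was 0.08, against -0.04 over all genes, and the rises were those of some members. Without single arrays 14 to 16 genes were called higher and 1 to 4 lower. Median centring of the arrays moved the split over all genes to 2557 higher and 3191 lower, against 2929 and 2254, and that of the members to 14 and 6. The groups did not overlap for 24 of the 46 genes, against 42.4% of all genes, among them all 21 that were called. A rise of at least 2-fold was found for 7 members (2.48% of all genes) and a fall of that size for 0 (0.967% of all genes).

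**Figure D1:**
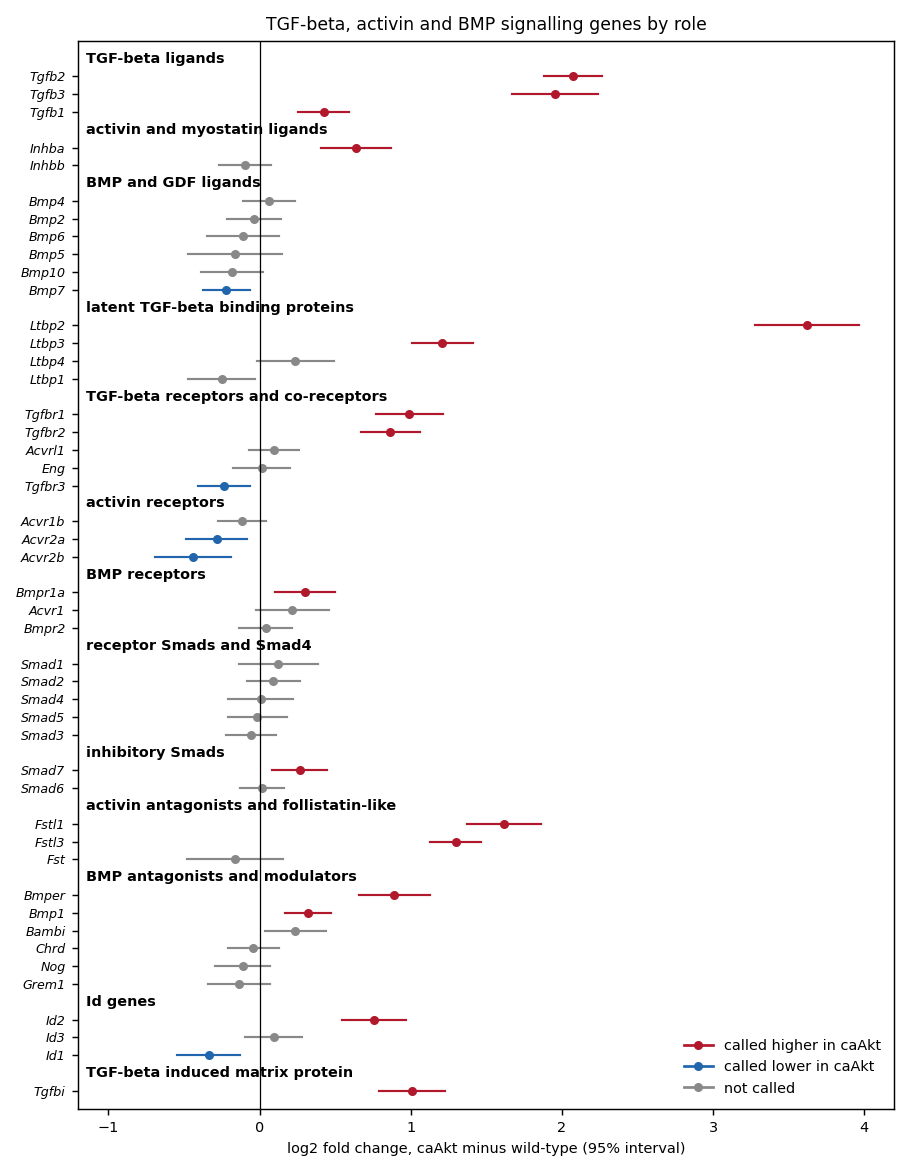
Log2 fold changes (caAkt minus wild-type, horizontal axis) of the 46 measured genes, one per row and grouped by role, with 95% intervals from limma over 3 caAkt and 3 wild-type arrays; colour marks the call. Ltbp2, Tgfb2 and Tgfb3 lie farthest to the right at 3.62, 2.07 and 1.96, and the receptor Smads and Smad4 all lie between -0.06 and 0.12.

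The hearts also differed in markers of other cell types. Summed linear signals of 6 activated fibroblast markers were 15170 to 19540 on the caAkt arrays, against 2939 to 3502 on the wild-type arrays, and all 6 rose. For 8 markers of resting fibroblasts the sums were 23510 to 27980 in caAkt hearts and 11720 to 15340 in wild-type hearts, and 5 rose. Macrophage markers summed to 21420 to 25900 in caAkt hearts and 7547 to 9213 in wild-type hearts, with 7 of 8 higher and Cd163 lower, a call lost without caAkt replicate 1 (adjusted p = 0.0715) or wild-type replicate 1 (0.0527). Endothelial markers summed to 7606 to 8337 in caAkt hearts and 9339 to 9877 in wild-type hearts, with 3 of 8 lower. The 8 cardiomyocyte markers summed to 249000 to 252600 in caAkt hearts and 255400 to 279900 in wild-type hearts, with 3 lower. Sums of 8 smooth muscle and pericyte markers overlapped (17250 to 23070 in caAkt hearts, 19080 to 21630 in wild-type hearts). Adipocyte markers (2 measured) summed to 63.34 to 74.23 in caAkt hearts and 122.2 to 235.3 in wild-type hearts, with Adipoq lower (-1.73) and Lep not called (0.01). The 4 epicardial markers summed to 328.9 to 350.4 in caAkt hearts and 379.6 to 440.9 in wild-type hearts, with 2 lower (0 to 2 without single arrays). Sums of 2 Schwann cell markers were 867 to 1011 in caAkt hearts and 638.6 to 757.1 in wild-type hearts, with 1 higher, and those of 5 lymphocyte markers overlapped. No marker was listed at 0. In the fibroblast, macrophage, endothelial, cardiomyocyte and smooth muscle lists the lowest log2 value was 5.30 (Cthrc1 on a wild-type array), above the 4.57 that Y-linked genes reached at most. A value of 5.30 is as low as those of genes described as dim below, such as Bmp2. The part of these cells in the results below was not tested. In whole tissue, more cells of a type and more RNA per cell cannot be told apart.

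The promoters of 5 genes that rose (a ligand, a latent binding protein family member, a receptor, a follistatin-like protein and an Id gene) are shown because each was called higher, and they were picked after their values were seen. They are windows of 300 bases around the annotated start from RefSeq (GRCm38.p6), written 5′ to 3′ on the strand of the gene. Capitals mark CAGAC, a short Smad3 and Smad4 recognition sequence, on either strand (GTCTG on the other), and GGCGCC, a GC-rich Smad1 and Smad5 recognition sequence, which reads alike on both strands.
Tgfb2 promoter (chr1:186705940-186706239, minus strand): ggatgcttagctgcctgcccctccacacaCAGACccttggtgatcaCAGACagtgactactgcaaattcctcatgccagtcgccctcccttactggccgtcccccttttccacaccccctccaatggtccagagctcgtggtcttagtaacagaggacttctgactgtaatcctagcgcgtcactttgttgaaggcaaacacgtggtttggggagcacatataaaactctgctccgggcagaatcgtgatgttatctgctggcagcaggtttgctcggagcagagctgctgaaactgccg
Ltbp2 promoter (chr12:84876442-84876741, minus strand): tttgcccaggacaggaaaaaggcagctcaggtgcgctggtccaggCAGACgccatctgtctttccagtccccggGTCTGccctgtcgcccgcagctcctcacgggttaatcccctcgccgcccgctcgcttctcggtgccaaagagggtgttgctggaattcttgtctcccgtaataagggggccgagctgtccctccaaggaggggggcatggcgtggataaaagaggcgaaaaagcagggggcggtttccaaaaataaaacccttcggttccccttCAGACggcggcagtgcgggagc
Tgfbr2 promoter (chr9:116175314-116175613, minus strand): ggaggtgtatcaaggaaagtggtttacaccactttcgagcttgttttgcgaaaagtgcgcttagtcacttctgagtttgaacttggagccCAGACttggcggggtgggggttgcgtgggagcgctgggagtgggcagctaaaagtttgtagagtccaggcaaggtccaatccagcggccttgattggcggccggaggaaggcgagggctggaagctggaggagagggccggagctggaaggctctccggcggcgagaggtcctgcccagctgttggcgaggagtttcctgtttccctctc
Fstl1 promoter (chr16:37776805-37777104, plus strand): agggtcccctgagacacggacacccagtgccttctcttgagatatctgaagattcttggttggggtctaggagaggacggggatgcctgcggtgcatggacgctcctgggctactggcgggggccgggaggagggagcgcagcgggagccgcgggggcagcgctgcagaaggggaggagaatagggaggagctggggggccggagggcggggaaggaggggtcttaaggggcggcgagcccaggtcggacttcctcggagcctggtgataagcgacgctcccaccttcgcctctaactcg
Id2 promoter (chr12:25096043-25096342, minus strand): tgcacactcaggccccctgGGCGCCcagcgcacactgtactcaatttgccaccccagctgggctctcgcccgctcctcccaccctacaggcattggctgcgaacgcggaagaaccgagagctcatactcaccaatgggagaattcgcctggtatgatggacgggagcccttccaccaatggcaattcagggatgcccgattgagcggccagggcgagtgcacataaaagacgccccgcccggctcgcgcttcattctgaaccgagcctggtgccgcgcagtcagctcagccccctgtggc
The Tgfb2 window held CAGAC 2 times, that of Ltbp2 3 times and that of Tgfbr2 once, while the Fstl1 window held neither motif and that of Id2 held GGCGCC once. Of the 46 genes, 33 had a window in the table used. CAGAC was found in 15 of these 33 first-listed windows (45.5%) and in 6 of the 13 that belong to genes called higher, against 49.7% of 27025 genes. GGCGCC was found in 9 of 33 (27.3%) and 4 of 13, against 12.0% of genes. The palindrome GTCTAGAC was found in 1 (0.211% of genes), that of Smad6. These counts describe letters in short windows and were not tested.

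Among the ligands, the rise was largest for Tgfb2 and Tgfb3. Tgfb2, the isoform that prominently accompanies heart valve and outflow tract development, read 10.19, 10.23 and 10.39 on the caAkt arrays, against 8.21, 8.30 and 8.07 on the wild-type arrays. Every caAkt value lay well above every wild-type value, and the difference was 4.21-fold (log2 fold change 2.07 ± 0.09, SE; adjusted p = 8.23e-07). Its 4 probe sets gave log2 fold changes of 1.19 to 2.33, and all were called. Tgfb3 read 10.65, 10.91 and 11.10 in caAkt hearts, against 8.78, 9.12 and 8.89 in wild-type hearts. The groups were again far apart, by 3.88-fold (1.96 ± 0.12, adjusted p = 8.02e-06), at its only probe set. Tgfb1, the isoform most studied in fibrosis and made by many cell types including macrophages and platelets, differed far less. It stood at 9.66, 9.69 and 9.71 on the caAkt arrays, against 9.18, 9.24 and 9.37 on the wild-type arrays, a 1.34-fold rise (0.42 ± 0.07, adjusted p = 0.00232) without overlap. A dimmer probe set of Tgfb1, at 5.94 in caAkt and 6.21 in wild-type hearts, was not called (-0.27), and with the mean of both probe sets the gene was not called (0.08, adjusted p = 0.553).

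The activin genes Inhba and Inhbb encode the subunits of activin A and activin B. Inhba read 9.57, 9.24 and 9.58 in caAkt hearts, against 8.76, 8.92 and 8.79 in wild-type hearts. It rose 1.56-fold (0.64 ± 0.10, adjusted p = 0.00155), with caAkt replicate 2 nearest to the wild-type arrays. A dimmer probe set of Inhba gave -0.10 and was not called. For Inhbb the answer depended on the probe set. The brighter one read 7.50, 7.60 and 7.64 in caAkt hearts and 7.59, 7.76 and 7.67 in wild-type hearts, with overlap and no call (-0.09 ± 0.08, adjusted p = 0.388). The other stood at 6.51, 7.22 and 6.89 on the caAkt arrays, against 5.64, 5.62 and 5.67 on the wild-type arrays, a log2 fold change of 1.23 ± 0.15 that was called in a fit over all 45037 probe sets (adjusted p = 0.000614; 20.0% of probe sets were called there). With the mean of both, Inhbb was called higher (0.57, adjusted p = 0.00251). The transcripts that the probe sets detect were not compared.

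The BMP ligands showed little difference. Bmp7, a ligand opposed to TGF-beta in models of fibrosis, read 6.97, 7.04 and 7.13 in caAkt hearts and 7.28, 7.26 and 7.26 in wild-type hearts. It was called 1.17-fold lower (-0.22 ± 0.07, adjusted p = 0.0417), but lost the call without any single array except caAkt replicate 3 (adjusted p 0.0351 to 0.122). Bmp2, Bmp4, Bmp5, Bmp6 and Bmp10 had log2 fold changes of -0.18 to 0.06 with overlapping groups and were not called, though Bmp5 passed (-0.33, adjusted p = 0.0377) when wild-type replicate 3 was omitted. The intervals of these 5 genes ran from -0.48 to 0.23 at their widest. Bmp2 was dim, at 5.32 in caAkt and 5.36 in wild-type hearts. Bmp10, in the adult mouse a ligand of atrial muscle, read 6.44, 6.37 and 6.59 on the caAkt arrays, against 6.49, 6.75 and 6.70 on the wild-type arrays. Atrial transcripts varied strongly within both groups: Myl7, the atrial myosin light chain, read 9.92, 7.16 and 9.67 in caAkt hearts, against 11.73, 8.79 and 10.31 in wild-type hearts, whereas the ventricular Myl2 stayed between 15.22 and 15.42 on all 6 arrays. The 3 atrial markers summed to 1305 to 4284 in caAkt hearts and 976.4 to 7525 in wild-type hearts, and none was called. Their part in the Bmp10 values was not tested.

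The latent TGF-beta binding proteins, which tether latent TGF-beta to fibrillin and other matrix fibres, diverged most among themselves. Ltbp2, the family member that does not bind latent TGF-beta, read 9.69, 10.11 and 10.20 on the caAkt arrays, against 6.19, 6.64 and 6.30 on the wild-type arrays. This 12.3-fold rise (3.62 ± 0.15, adjusted p = 8.23e-07) was the largest of all members. Ltbp3, which does bind latent TGF-beta, read 10.48, 10.62 and 10.47 in caAkt hearts, against 9.15, 9.39 and 9.40 in wild-type hearts, and rose 2.31-fold (1.21 ± 0.09, adjusted p = 1.64e-05). Its values were called at 2 of 4 probe sets, and the other pair, both dim, gave 0.33 and 0.42. Ltbp1 stood at 8.40, 8.67 and 8.57 on the caAkt arrays, against 8.70, 8.74 and 8.96 on the wild-type arrays, without overlap but without a call (-0.25 ± 0.10, adjusted p = 0.0875), although it was called lower after median centring or a repeated quantile normalization. Ltbp4 was not called either (0.24 ± 0.11, adjusted p = 0.152).

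**Figure D2:**
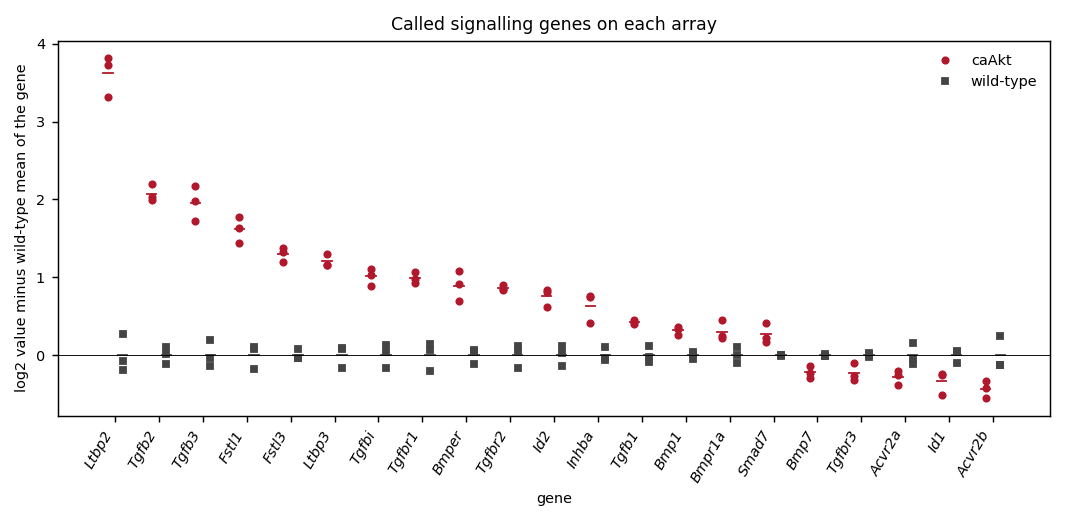
Values of the 21 called genes on each array, as log2 value minus the wild-type mean of the same gene (vertical axis), with caAkt arrays as circles left of wild-type arrays as squares and short lines for group means (n = 3 each). For each of these genes the 3 caAkt points lie apart from the 3 wild-type points, from Ltbp2 at the left (caAkt mean 3.62 above wild-type) to Acvr2b at the right (-0.44).

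Both signalling receptors for TGF-beta rose. Tgfbr1, the type I kinase, read 10.77, 10.72 and 10.87 on the caAkt arrays, against 9.94, 9.86 and 9.59 on the wild-type arrays, a 1.99-fold difference (0.99 ± 0.10, adjusted p = 8.80e-05). Tgfbr2, the type II kinase that binds the ligand first, read 10.98, 10.97 and 11.03 in caAkt hearts, against 10.18, 10.25 and 9.95 in wild-type hearts, 1.82-fold higher (0.86 ± 0.09, adjusted p = 9.45e-05). For either gene the 3 caAkt values differed from each other by less than the wild-type values did. The co-receptor Tgfbr3 (betaglycan), which presents TGF-beta 2 to the signalling receptors and is also a co-receptor for inhibin, moved the other way. It read 10.19, 10.41 and 10.25 on the caAkt arrays, against 10.51, 10.49 and 10.54 on the wild-type arrays (-0.23 ± 0.08, adjusted p = 0.0489), a call that survived the omission of caAkt replicate 2 alone (adjusted p 0.0244 to 0.147 over the 6 omissions). Acvrl1 and Eng, the type I receptor and co-receptor typical of endothelium, were not called at their brightest probe sets (0.10 ± 0.07 and 0.01 ± 0.08), beside endothelial markers with a median of -0.23. A dimmer probe set of Acvrl1 was called higher (0.30 ± 0.09, adjusted p = 0.0371 over all probe sets), and so was the gene with plain probe sets or the mean of both.

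Receptors that bind activin and myostatin were lower or not called. Acvr2b, a type II receptor shared by activins, myostatin and some BMPs, read 7.54, 7.44 and 7.31 in caAkt hearts, against 7.75, 7.75 and 8.12 in wild-type hearts. It fell 1.36-fold (-0.44 ± 0.11, adjusted p = 0.0166), and 2 of its 3 probe sets were called lower. The call was lost without caAkt replicate 2 (adjusted p = 0.0530) or caAkt replicate 3 (0.0696). Its relative Acvr2a read 9.73, 9.68 and 9.56 on the caAkt arrays, against 10.10, 9.90 and 9.83 on the wild-type arrays (-0.28 ± 0.09, adjusted p = 0.0427). Of the 6 omissions of an array, that of wild-type replicate 3 alone kept the call (adjusted p 0.0302 to 0.133), and a dimmer probe set gave 0.21 without a call. Acvr1b, the type I partner, had -0.12 ± 0.07 and was not called.

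Among the BMP receptors, the type I kinase Bmpr1a was called higher (0.30 ± 0.09, adjusted p = 0.0309), with 11.02, 10.81 and 10.79 in caAkt hearts, against 10.67, 10.57 and 10.46 in wild-type hearts. Of its 6 probe sets 4 were called higher, at 0.30 to 0.46. At the brightest one the call was lost without caAkt replicate 1 or 2 (adjusted p = 0.101 and 0.0566) or wild-type replicate 2 or 3 (0.0842 and 0.0898). Acvr1 and Bmpr2 were not called (0.22 ± 0.11 and 0.04 ± 0.08), although a dimmer probe set of each was (0.32 and 0.36, adjusted p = 0.0270 and 0.0315 over all probe sets).

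Receptor Smads Smad1, Smad2, Smad3 and Smad5 and the common partner Smad4 had log2 fold changes of -0.06 to 0.12, their groups overlapped, and 0 of 5 were called by limma, with unadjusted p-values of 0.262 to 0.934. With 28.5% of all genes called, a count of 0 among 5 does not set these genes apart. The 95% intervals ran from -0.22 to 0.38 over these 5 genes. Smad4 read 11.55, 11.27 and 11.37 on the caAkt arrays, against 11.48, 11.44 and 11.25 on the wild-type arrays. Smad3 read 9.31, 9.38 and 9.17 in caAkt hearts, against 9.35, 9.33 and 9.35 in wild-type hearts. For Smad1, a dimmer probe set was called higher (0.28 ± 0.07, adjusted p = 0.0230 over all probe sets). Smad2 was called lower when plain probe sets alone were used (-0.25, adjusted p = 0.0365), which left it with a dimmer probe set. Transcript levels say nothing of Smad phosphorylation, which was not measured.

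The inhibitory Smads block receptor Smads, and their genes are induced by the pathways they restrain. Smad7 read 9.22, 9.17 and 9.42 on the caAkt arrays, against 8.99, 9.01 and 9.01 on the wild-type arrays (0.27 ± 0.08, adjusted p = 0.0353). The groups were apart, but of the 6 omissions of an array, that of caAkt replicate 2 alone kept the call (adjusted p 0.0336 to 0.0950), which was also lost after median centring or a repeated quantile normalization. Smad6, which acts mainly on BMP signals, was not called (0.02 ± 0.07), with an interval of -0.13 to 0.16.

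**Figure D3:**
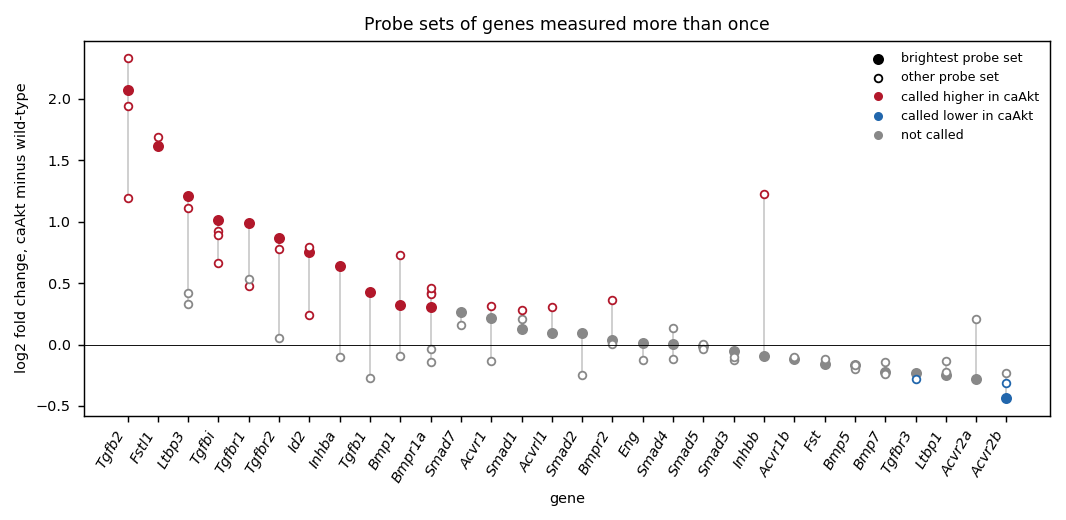
Log2 fold change (caAkt minus wild-type, vertical axis) of every probe set of the 30 genes with several, with the brightest probe set filled, others open, and colour marking the call in a fit over all 45037 probe sets. The probe sets of Tgfb2, Fstl1 and Tgfbi are all called higher, whereas those of Inhbb lie at -0.09 and 1.23; Smad7, Bmp7, Acvr2a and the brightest probe set of Tgfbr3 are not called in that fit.

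Among the antagonists, the follistatin-like genes rose and follistatin did not. Fstl1, a secreted glycoprotein known in the heart from fibroblasts and epicardium (markers above), read 12.58, 12.78 and 12.91 on the caAkt arrays, against 11.22, 11.24 and 10.96 on the wild-type arrays. It rose 3.07-fold (1.62 ± 0.11, adjusted p = 9.82e-06), and its second probe set gave 1.69. Fstl3, which binds and blocks activin and myostatin, read 8.91, 9.08 and 9.03 in caAkt hearts, against 7.78, 7.67 and 7.67 in wild-type hearts, 2.46-fold higher (1.30 ± 0.07, adjusted p = 4.62e-06). Fst, the classical activin trap, was dim, with 5.97, 5.68 and 5.84 on the caAkt arrays, against 5.84, 5.80 and 6.33 on the wild-type arrays, and was not called (-0.16 ± 0.14, adjusted p = 0.431).

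Of 6 BMP antagonists and modulators, Bmper and Bmp1 were called higher (33.3%, against 16.1% of all genes) and 4 were not called. A count of 2 among 6 does not set this list apart. Bmper, a secreted modulator that binds BMPs, read 7.19, 7.57 and 7.41 in caAkt hearts, against 6.56, 6.55 and 6.39 in wild-type hearts. It rose 1.86-fold (0.89 ± 0.10, adjusted p = 0.000233). Grem1, Nog and Chrd, which trap BMP ligands, had log2 fold changes of -0.14, -0.11 and -0.04 and were not called. Grem1 (5.82 in caAkt and 5.96 in wild-type hearts) and Nog (5.28 and 5.39) were dim. Bmp1, despite its name a protease that matures procollagens and cleaves the antagonist chordin, rose 1.25-fold (0.32 ± 0.07, adjusted p = 0.00645), while its dimmer probe sets gave 0.73, which was called, and -0.10, which was not (adjusted p = 0.000832 and 0.518 over all probe sets). The pseudoreceptor Bambi read 10.77, 10.58 and 10.47 on the caAkt arrays, against 10.36, 10.44 and 10.31 on the wild-type arrays, and was not called (0.24 ± 0.09, adjusted p = 0.0764) except without caAkt replicate 3 (adjusted p = 0.0449).

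Genes used as readouts of the pathways went different ways. Tgfbi, a matrix protein named for its induction by TGF-beta, read 10.38, 10.46 and 10.24 in caAkt hearts, against 9.39, 9.48 and 9.18 in wild-type hearts. It rose 2.02-fold (1.01 ± 0.10, adjusted p = 6.96e-05) and was called at all 4 probe sets. It is also strongly expressed by macrophages, whose markers rose as given above. The Id genes encode inhibitors of helix-loop-helix factors and are direct targets of BMP Smads. Id1 read 10.41, 10.68 and 10.67 on the caAkt arrays, against 10.98, 10.96 and 10.82 on the wild-type arrays, and fell 1.26-fold (-0.34 ± 0.09, adjusted p = 0.0228). Its call was lost without caAkt replicate 1 (adjusted p = 0.0665), wild-type replicate 1 (0.0723) or wild-type replicate 2 (0.0805). Id2 read 9.43, 9.40 and 9.21 in caAkt hearts, against 8.71, 8.61 and 8.45 in wild-type hearts, and rose 1.69-fold (0.75 ± 0.09, adjusted p = 0.000334), with all 3 probe sets called. The dimmest of these stood at 4.69 in caAkt and 4.45 in wild-type hearts (0.24), near the 4.57 that Y-linked genes reached at most. Id3 was not called (0.09 ± 0.08, adjusted p = 0.436), so the family had 1 member in each state.

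Further genes of the pathway, 104 in a list chosen beside the members, were read in the same fit, and 94 were measured. They were chosen with earlier results of these data known, so their shares are not an independent result. In all 41 rose (43.6%, against 16.1% of all genes) and 11 fell (11.7%, near the 12.4% of all genes), with a median log2 fold change of 0.10. Among 18 measured genes that TGF-beta is known to induce, 16 rose and 0 fell (15 to 17 rose without single arrays), with a median of 1.67. The matrix glycoprotein Tnc rose by 3.49 ± 0.08, the protease inhibitor Timp1 by 4.24 ± 0.15, and the collagen chains Col1a1 and Col1a2 by 2.31 ± 0.07 and 2.02 ± 0.08 on the log2 scale. The remaining pair, Acta2, a marker of myofibroblasts and smooth muscle, and the cytokine Il11, were not called (0.03 ± 0.21 and 0.00 ± 0.11). They were chosen after their values were seen, and Acta2 was called without caAkt replicate 1 (adjusted p = 0.0456). Of this list Postn, Comp and Cthrc1 are also activated fibroblast markers above, and Acta2 and Tagln smooth muscle markers, so the counts are not independent.

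**Figure D4:**
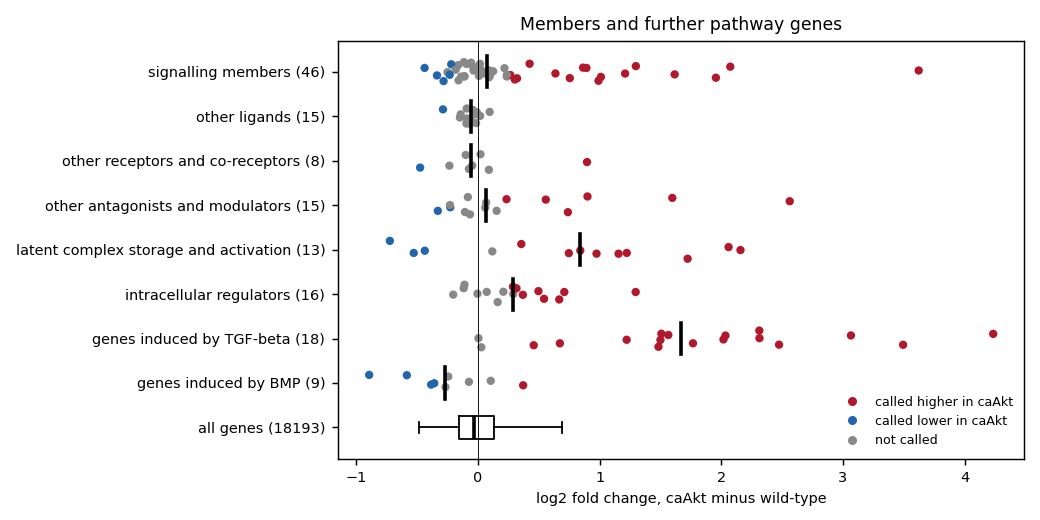
Log2 fold changes (caAkt minus wild-type, horizontal axis) of the 46 members and of 7 lists of further pathway genes, one point per gene with the number measured in brackets, the list median as a black bar and colour for the call; the box at the bottom shows all 18193 genes, with quartiles and whiskers at the 5th and 95th percentiles. The TGF-beta induced genes have a median of 1.67 and the genes of latent complex storage and activation 0.84, while the BMP induced genes have -0.27.

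Genes that store or activate latent TGF-beta also changed widely. Of 13 measured, 9 rose (69.2%, against 16.1% of all genes) and 3 fell (23.1%, against 12.4%), and the median was 0.84. With any 1 array omitted, 7 to 8 rose and 2 to 3 fell. The membrane metalloprotease Mmp14 rose by 2.16 ± 0.08, thrombospondin Thbs1, a known activator of the latent complex, by 2.06 ± 0.13, Mmp2 by 1.22 ± 0.10 and the integrin subunit Itgb5 by 0.97 ± 0.07. Lower were Itgb6, the epithelial integrin subunit (-0.72 ± 0.18), Mmp9 (-0.53 ± 0.12) and the proprotein convertase Pcsk6 (-0.44 ± 0.10), named after their values were seen, and the call of Itgb6 was lost without wild-type replicate 1 (adjusted p = 0.0587) or 3 (0.0594). Among 16 intracellular regulators, 8 rose (50%, against 16.1% of all genes) and 0 fell (12.4% of all genes did), with a median of 0.29. Without single arrays 6 to 8 rose. Pmepa1, a TGF-beta induced protein that sequesters receptor Smads, rose by 1.30 ± 0.07, the corepressors Tgif1 and Skil by 0.71 ± 0.07 and 0.67 ± 0.11, and the phosphatase Ppm1a by 0.54 ± 0.09.

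Proteoglycans that bind TGF-beta led the other antagonists and modulators. Of 15 measured, 6 rose (40%, against 16.1% of all genes) and 2 fell (13.3%, near the 12.4% of all genes). Without single arrays 5 rose and 0 to 1 fell. Fmod (fibromodulin) rose by 2.56 ± 0.09, Bgn (biglycan) by 1.60 ± 0.10, Dcn (decorin) by 0.74 ± 0.10 and the BMP antagonist Nbl1 by 0.90 ± 0.15. The genes that fell, Dand5 (-0.33) and Sostdc1 (-0.23), were named after their values were seen. Sostdc1 lost its call whichever array was omitted (adjusted p 0.0503 to 0.121). When single arrays were omitted, Dand5 kept its call only without caAkt replicate 2 or wild-type replicate 1 or 3 (adjusted p 0.00728 to 0.0566 over all omissions). Of 9 measured genes induced by BMP, 4 fell (44.4%, against 12.4% of all genes) and 1 rose (11.1%, against 16.1%), each also without any single array. Hey2 and Hey1, transcriptional repressors that are Notch targets as well and are expressed in endothelium, fell by 0.58 ± 0.07 and 0.39 ± 0.06, Gata2, an endothelial and blood cell factor, by 0.36 ± 0.08, and Id4 rose by 0.37 ± 0.09. Hamp, which encodes the iron hormone hepcidin, fell by 0.89 ± 0.21 and was named after its value was seen. Endothelial markers were lower too, with a median of -0.23, and their part in these values was not tested.

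Of 15 other ligands of the family, 0 rose (16.1% of all genes did) and 1 was called lower (6.67%, against 12.4% of all genes). That was Inha, the inhibin alpha subunit (-0.29 ± 0.07, adjusted p = 0.0137). Some of these ligands were dim, so that their small differences say little. Among them were Lefty2 (4.31 in caAkt and 4.45 in wild-type hearts) and Gdf5 (5.09 and 5.19). Of 8 other receptors and co-receptors, 1 rose (12.5%, against 16.1% of all genes) and 1 fell (12.5%, near the 12.4% of all genes). These counts do not set the list apart. Amhr2, the receptor of anti-Müllerian hormone, rose (0.90 ± 0.16, adjusted p = 0.00248). Its value came from 1 of 3 probe sets, one with an x suffix. The call held without any single array, but at least 1 processing alternative left 0 genes of this list called higher. Hjv, the BMP co-receptor hemojuvelin of striated muscle and liver, fell (-0.48 ± 0.12, adjusted p = 0.0174). The call of Hjv was lost without caAkt replicate 2 or 3 or wild-type replicate 1 (adjusted p = 0.0745, 0.0736 and 0.0585).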

How the data were processed

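The deposited values are on the log2 scale, one per probe set and array, and come from RMA (package affy) per the submitters' processing notes. RMA corrects the background, makes array distributions alike and summarises probes, so differences are relative to the bulk of the array. Neither version is given in the sources used here. The table lists 45101 probe sets, including 64 controls. The platform annotation gave 1 symbol to 34945, several to 932 and none to 9160, and 18193 genes remained. Neither a filter on dim probe sets nor a pseudocount was used.

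The genotype term was fitted by limma (version 3.58.1, R 4.3.3; lmFit, then eBayes, two-sided, 4 residual degrees of freedom), with Benjamini-Hochberg adjustment over 18193 genes and a threshold of 0.05. Errors of fold changes are moderated standard errors. Precision is limited by 3 arrays a group. Other probe sets were read from the same fit over 45037 probe sets. The fit was tested on simulated data. It recovered 34 of 67 changes of 0.5 on the log2 scale (50.7%), 97% of 67 changes of 1 and 100% of 66 changes of 2. These were few among 18193 genes, whereas 28.5% of genes were called in the data. The adjustment depends on how many genes change, so these shares do not give the recovery in the data. A gene that was not called may still differ by a moderate amount.

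Members and lists were chosen with earlier results of these data known. Named were all members and up to 4 called genes with the smallest p per further list; others are marked. Deviations from the group means of same-numbered arrays had correlations of 0.25, -0.0004 and -0.13, and those of different-numbered arrays -0.26 to 0.22. With 3 arrays a group, these values cannot show whether arrays were paired. The numbers were not treated as pairs in the main fit. Alternatives were trend and robust settings, the mean of probe sets, plain probe sets (without an x, s or a suffix), no genes below log2 5, a repeated quantile normalization, median centring, a replicate block, a threshold of 0.01 and omission of each array.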

Additional observations from a re-analysis of the deposited data

How the results depend on the processing

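Across 14 alternatives (13 for genes without a plain probe set), 13 of the 21 called genes stayed called in the same direction and 0 changed sign. The 8 that lost a call somewhere were Tgfb1, Bmp7, Tgfbr3, Acvr2a, Acvr2b, Bmpr1a, Smad7 and Id1. The number of members called lower, 5, was 3 with the replicate block, 0 at a threshold of 0.01 and 1 to 4 without single arrays. No other count of members called changed by over 1.5 times with the block, whose numbers are not known to pair the arrays. At 0.01, 3255 of all genes were called (5183 at 0.05), and 5 further pathway genes (11 at 0.05) and 6 marker genes (11 at 0.05) were called lower; without single arrays 7 to 11 marker genes were. The median of the members was 0.01 after a repeated quantile normalization. The cause was not tested.

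Changes of sign were confined to 14 genes that were not called, and all but those of Inhbb and Smad2 were small. With the mean of probe sets, Inhbb had 0.57 (adjusted p = 0.00251), Eng -0.057 and Smad2 -0.078, and with plain probe sets Smad2 had -0.25 (adjusted p = 0.0365). A repeated quantile normalization gave 0.024 for Bmp2, -0.022 for Bmp4, -0.034 for Eng, -0.025 for Smad4 and -0.066 for Smad6. Median centring gave -0.034 for Eng, -0.007 for Bmpr2, -0.039 for Smad4 and -0.031 for Smad6. Without single arrays Bmp2 ranged between -0.088 and 0.0096, Bmp6 -0.20 and 0.016, Eng -0.029 and 0.088, Bmpr2 -0.02 and 0.097, Smad1 -0.014 and 0.22, Smad3 -0.10 and 0.0002, Smad4 -0.070 and 0.071, Smad5 -0.070 and 0.063, Smad6 -0.013 and 0.039, Fst -0.25 and 0.0083, and Chrd -0.082 and 0.0057.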
